A study of Rattus norvegicus with 25 samples.

Results

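The complement genes described here are 10 genes of the classical pathway and its receptors, taken by name from the 34322 genes of the deposited count table: C1qa, C1qb, C1qc, C1s, C2, C3, C3ar1, Itgam, Itgb2 and Serping1. All 10 were present, and all 10 were among the 21064 genes that passed the filter on low counts. Complement is a cascade of plasma and tissue proteins that tags targets for removal. In the classical pathway C1q recognises the target, the attached proteases C1r and C1s are activated, C2 and C4 are cut to form a convertase, and C3 is split into C3b, which stays on the target, and C3a, which signals through C3ar1. The integrin made of Itgam (CD11b) and Itgb2 (CD18) is complement receptor 3, which binds a fragment of C3b, and Serping1 encodes the C1 inhibitor, which blocks C1r and C1s. In brain, microglia are known as the main source of C1q and as carriers of complement receptor 3, and complement is known for its part in the removal of synapses by microglia.

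RNA was sequenced from the hippocampus of male Sprague-Dawley rats, adult and 6 to 7 weeks old, in 5 groups of 5 libraries. Vehicle-sham rats had a sham operation and vehicle, and Vehicle-CCI rats had controlled cortical impact (CCI), an open-skull contusion of the cortex that lies over the hippocampus, and vehicle. TD-CCI, TCF-CCI and TNF-CCI rats had CCI and a supplement made from thymus. TD stands for the thymus supplement, TCF for thymus cytosolic factor and TNF for thymus nuclear factor, which is not the cytokine of that abbreviation. For TCF-CCI the impact is given by the source name and not by the treatment label. The series title calls the nuclear extract bovine and asks about recovery after traumatic brain injury. Dose, route, time after injury and brain side are not given in the sources used here, and no label ties a library to an animal, so p-values measure the spread between libraries, which may be technical.

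The libraries held between 27290179 and 44899467 counts in total (median 32825459), and the 10 genes had 40 to 4288 counts per library. The hippocampal neuron markers were present in every library, with a summed level of 1025 to 2337 CPM (the gene's counts scaled to a common library size, with TMM factors). Of the sham libraries, Vehicle-sham 2 and 3 stood apart, with 25.63% and 17.26% of their counts on the mitochondrial ribosomal RNA genes. The lowest share, 2.18%, was in Vehicle-sham 5, which was the highest sham library for 9 of the 10 complement genes (all but C3ar1). The calls for the 4 CCI groups together over sham are given with and without Vehicle-sham 2 and 3.

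The C1q chains are encoded side by side. On mRatBN7.2, the build of the deposited table, C1qb (chr5:149118843-149124394), C1qc (chr5:149127424-149130732) and C1qa (chr5:149133635-149136482) lie on the minus strand within 17.6 kb, with 3029 and 2902 bases between neighbours. The other members are on 5 other chromosomes: Itgam at chr1:182659047-182709495, Serping1 at chr3:69842726-69852583, C3ar1 at chr4:156074747-156084680, C1s at chr4:157430249-157442438, C3 at chr9:2087437-2114366, C2 at chr20:3951474-3970376 and Itgb2 at chr20:11061394-11097656. These are whole gene spans, and counts were summed over exons, so no value refers to a single exon or UTR. The span of Itgb2 overlaps a gene on the opposite strand, LOC120099012, and whether reads were counted by strand is not stated, so its value may include reads of that gene.

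RefSeq promoter sequences (GRCr8, a later build than that of the counts, 250 bases before to 50 after the gene start) were at hand for 5 of the 10 members: C1qa, C1qb, C3, C3ar1 and Itgam. The sequences of 4 are shown because they cover the C1q cluster, the central component and the receptor, whose levels moved together from library to library. Capitals mark matches to the motifs searched on both strands. These were GAGGAA, the core bound by the myeloid factor PU.1, TTGCNNAA, bound by C/EBP factors, and a 10-base NF-kappa-B-like pattern. That pattern differs from the NF-kappa-B consensus, which was not searched. The windows are chr5:154419884-154420183 (minus strand), chr5:154407778-154408077 (minus), chr9:2201290-2201589 (minus) and chr1:192089342-192089641 (plus).
C1qa: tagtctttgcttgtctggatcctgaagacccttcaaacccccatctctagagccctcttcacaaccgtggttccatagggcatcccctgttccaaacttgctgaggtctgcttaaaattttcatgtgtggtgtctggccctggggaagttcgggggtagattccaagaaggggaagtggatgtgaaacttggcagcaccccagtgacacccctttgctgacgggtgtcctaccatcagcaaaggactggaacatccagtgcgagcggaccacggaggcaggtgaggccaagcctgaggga
C1qb: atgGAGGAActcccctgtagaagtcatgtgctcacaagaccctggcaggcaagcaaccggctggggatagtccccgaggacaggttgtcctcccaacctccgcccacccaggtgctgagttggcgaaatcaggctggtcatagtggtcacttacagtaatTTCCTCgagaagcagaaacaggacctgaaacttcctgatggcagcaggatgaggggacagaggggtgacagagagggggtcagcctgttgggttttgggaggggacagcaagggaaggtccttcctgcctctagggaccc
C3: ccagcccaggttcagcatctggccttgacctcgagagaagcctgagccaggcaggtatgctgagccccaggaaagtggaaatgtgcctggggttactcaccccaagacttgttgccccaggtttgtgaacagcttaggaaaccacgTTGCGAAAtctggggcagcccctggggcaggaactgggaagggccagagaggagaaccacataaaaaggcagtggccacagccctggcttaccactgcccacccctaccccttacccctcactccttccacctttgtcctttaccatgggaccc
Itgam: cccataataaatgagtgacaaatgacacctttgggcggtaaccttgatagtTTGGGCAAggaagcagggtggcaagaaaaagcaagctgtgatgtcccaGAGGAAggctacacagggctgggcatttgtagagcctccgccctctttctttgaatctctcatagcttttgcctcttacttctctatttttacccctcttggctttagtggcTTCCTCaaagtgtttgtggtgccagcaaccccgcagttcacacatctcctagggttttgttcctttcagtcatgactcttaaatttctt
Counting the start base as 0, the C1qb window held GAGGAA at -247 and, on the opposite strand, at -90. The Itgam window held it at -151 and, on the opposite strand, at -39, with TTGCNNAA on the opposite strand at -199, and the C3 window held TTGCNNAA at -104. The C3ar1 window (not shown) held the NF-kappa-B-like pattern on the opposite strand at -64, which is not a match to the consensus itself. None of the 3 motifs was found in the C1qa window, which says only that these letters are not there. GAGGAA was found in 27.6% of the 33469 promoters of the same length, TTGCNNAA in 10.6% and the NF-kappa-B-like pattern in 1.53%. A match describes the sequence and is no measure of binding.

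All 10 complement genes had a higher mean after CCI than in sham, and 6 of them passed the test for the mean of the 4 CCI groups over Vehicle-sham: C3, Serping1, Itgb2, C2, C1qa and C1s (edgeR quasi-likelihood test, Benjamini-Hochberg adjusted p under 0.05 over all genes tested). Higher calls made up 2.24% of all genes tested in that comparison. All 10 members had an unadjusted p under 0.05, as had 9.68% of genes in that direction. No member was free of overlap between the 20 CCI and the 5 sham libraries, against 0.0427% of genes. The median log2 fold change was 1.08 over the 10 members and 0.01 over all genes. The largest were those of Serping1, 2.42 ± 0.53 (SE), and C3, 2.25 ± 0.47, and the smallest that of C3ar1, 0.61 ± 0.24. In bulk tissue, more cells of a type and more RNA per cell cannot be told apart. Without Vehicle-sham 2, or without Vehicle-sham 2 and 3, none of the 10 passed, and the fold changes were still above 0 in all 10. Calls over all genes fell in the same settings, to 0.033% of genes higher without Vehicle-sham 2 and to 0% without both, so the loss was not limited to the complement genes. Without Vehicle-sham 2 the adjusted p was 0.0666 for C3 and 0.0672 for Serping1, and without both libraries C3 was at 1.86 and Serping1 at 2.24 (adjusted p = 0.145 for each, edgeR). When the mitochondrial rRNA share entered the edgeR model, C3 alone passed (1.94, adjusted p = 0.0473), and 0.461% of genes passed higher.

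**Figure D1:**
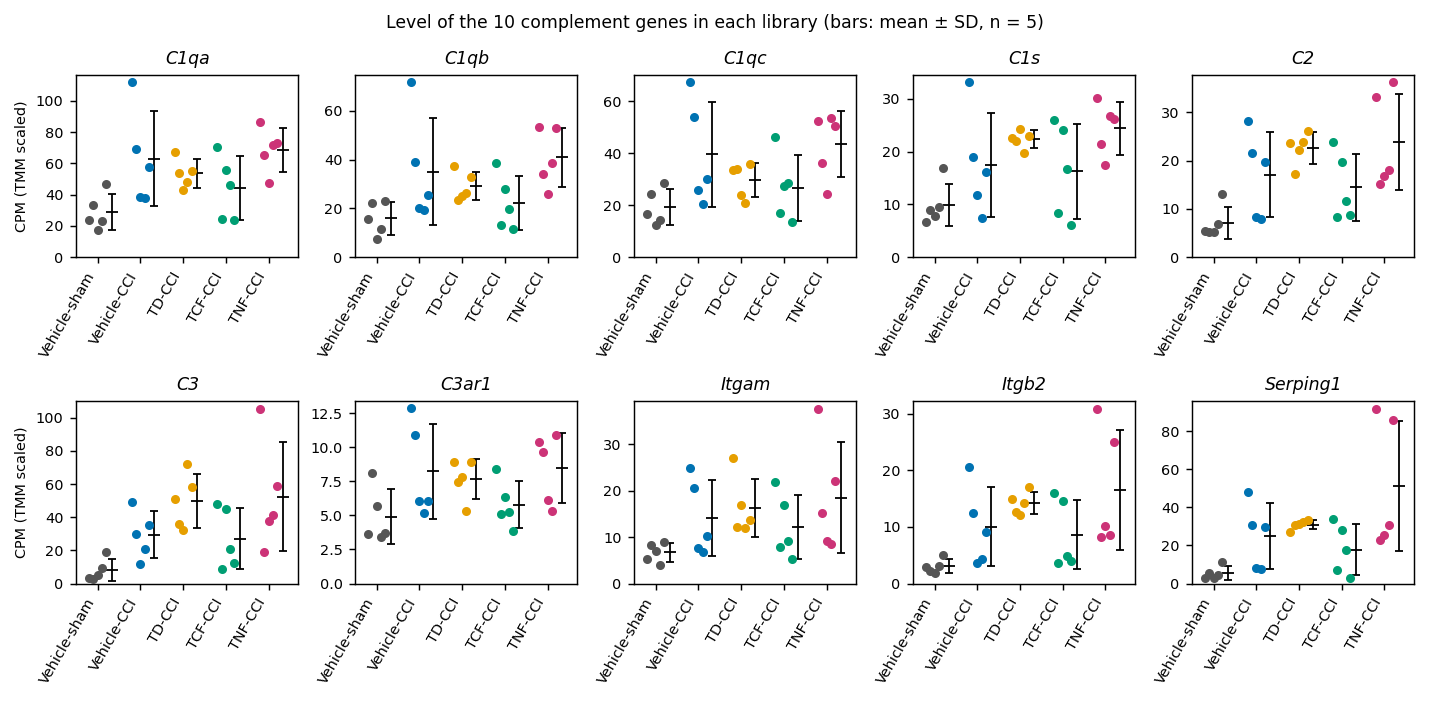
Level of each complement gene in every library (y axis: CPM after TMM scaling; x axis: group; points: libraries; bars: mean ± SD, n = 5). In all 10 panels Vehicle-sham has the lowest mean and TNF-CCI the highest, and TCF-CCI has the lowest mean of the CCI groups.

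C1qa, C1qb and C1qc encode the A, B and C chains of C1q, the recognition molecule. C1qa was at 23.9, 33.2, 17.6, 23.2 and 46.8 CPM in Vehicle-sham 1 to 5, and at 112, 69.1, 38.4, 37.9 and 57.7 CPM in Vehicle-CCI 1 to 5. It was at 67.5, 54.1, 42.8, 48.3 and 54.9 CPM in TD-CCI and at 70.4, 24.3, 55.9, 46.2 and 23.8 CPM in TCF-CCI. In TNF-CCI it was at 86.1, 65, 47.7, 71.8 and 72.8 CPM. Vehicle-sham 5 was as high as the low CCI libraries, and TNF-CCI was the one group whose 5 libraries all lay above every sham library. C1qa rose by 0.97 ± 0.26 on the log2 scale over the 4 CCI groups together (adjusted p = 0.035), with 14 of the 20 CCI libraries above every sham library.

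C1qb was at 15.6, 22.3, 7.59, 11.4 and 23.2 CPM in Vehicle-sham and at 71.6, 38.9, 20.1, 19.2 and 25.5 CPM in Vehicle-CCI. It was at 37.3, 23.4, 25.2, 26.5 and 33 CPM in TD-CCI, at 38.5, 13.3, 27.8, 19.7 and 11.4 CPM in TCF-CCI and at 53.4, 34.1, 25.7, 38.5 and 53.1 CPM in TNF-CCI. All TD-CCI and TNF-CCI libraries lay above the sham libraries, and 3 TCF-CCI libraries lay within the sham range. The mean CCI difference of 0.95 ± 0.3 did not pass (adjusted p = 0.0572, edgeR).

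C1qc was at 16.5, 24.2, 12.4, 14.2 and 28.7 CPM in Vehicle-sham and at 67.5, 53.9, 26, 20.5 and 29.9 CPM in Vehicle-CCI. It was at 33.5, 34.1, 24.1, 21 and 35.9 CPM in TD-CCI, at 46.1, 16.9, 27.3, 28.6 and 13.6 CPM in TCF-CCI and at 52.5, 36.2, 24.5, 53.4 and 50.5 CPM in TNF-CCI. Every CCI group overlapped sham, and 11 of the 20 CCI libraries were above every sham library. Its mean CCI difference of 0.83 ± 0.28 did not pass (adjusted p = 0.0675, edgeR).

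The chains kept similar proportions. Per kilobase of exon, C1qa made up 47.7 ± 2.83% of the 3 chains' summed level (SD over 25 libraries), C1qb 23.9 ± 2.49% and C1qc 28.4 ± 2.86%. The mean C1qa share was 46.4% in sham and 46.6% to 48.9% in the CCI groups. For C1qb it was 23.4% in sham and 22.6% to 25.4% in the CCI groups. C1qc had a mean share of 30.2% in sham and of 26.3% (TD-CCI) to 28.7% in the CCI groups. Single libraries ran from 21.9% to 33.3% for C1qc.

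C1s, the protease that cuts C4 and C2 once C1q has bound, was at 6.62, 8.94, 7.82, 9.59 and 16.8 CPM in Vehicle-sham and at 33.2, 18.9, 11.8, 7.34 and 16.1 CPM in Vehicle-CCI. It was at 22.6, 21.9, 24.3, 19.7 and 23 CPM in TD-CCI, at 26, 8.44, 24.1, 16.6 and 6.01 CPM in TCF-CCI and at 30.1, 21.4, 17.4, 26.8 and 26.2 CPM in TNF-CCI. TD-CCI libraries lay close together and above every sham library, as did all of TNF-CCI, and 1 TCF-CCI library was below every sham library. C1s rose by 0.99 ± 0.3 on the log2 scale over the 4 CCI groups together (adjusted p = 0.0479, edgeR). This call was made in 11 of the 33 alternative settings, against 28 to 31 for the other 5 called members, and the C1s value was above 0 in all 33.

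C2, the substrate of C1s and the protease part of the C3 convertase, was at 5.36, 5.18, 5.19, 6.85 and 13 CPM in Vehicle-sham and at 28.1, 21.6, 8.25, 7.84 and 19.8 CPM in Vehicle-CCI. It was at 23.6, 17.2, 22.3, 23.8 and 26.2 CPM in TD-CCI, at 23.8, 8.26, 19.8, 11.6 and 8.8 CPM in TCF-CCI and at 33.2, 15.1, 16.8, 18.1 and 36.2 CPM in TNF-CCI. Vehicle-sham 5 alone overlapped the CCI libraries, and 20 of 20 CCI libraries were above the sham mean of 7.12 ± 3.37 CPM (SD, n = 5). C2 rose by 1.42 ± 0.32 over the 4 CCI groups together (adjusted p = 0.0223, edgeR).

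C3, on which all complement pathways converge, was at 3.61, 2.96, 5, 9.19 and 18.9 CPM in Vehicle-sham and at 48.9, 30.1, 12, 20.8 and 35.4 CPM in Vehicle-CCI. It was at 51, 36.1, 32.5, 72.3 and 58.2 CPM in TD-CCI, at 48.2, 8.65, 44.9, 20.8 and 12.4 CPM in TCF-CCI and at 105, 19.1, 37.8, 41.3 and 59 CPM in TNF-CCI. All TD-CCI and TNF-CCI libraries were above every sham library, TNF-CCI 2 by the smallest margin, and 17 of all 20 CCI libraries were. The difference for the 4 CCI groups together was 2.25 ± 0.47 (adjusted p = 0.0222, edgeR), the smallest unadjusted p among the members. The mean level went from 7.93 ± 6.6 CPM in sham (SD, n = 5) to 39.7 ± 23.1 CPM over the CCI libraries (SD, n = 20).

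C3ar1, the receptor of C3a, was at 3.64, 8.14, 5.67, 3.42 and 3.68 CPM in Vehicle-sham and at 12.9, 10.9, 6.04, 5.2 and 6.05 CPM in Vehicle-CCI. It was at 8.92, 7.47, 7.81, 5.3 and 8.89 CPM in TD-CCI, at 8.41, 5.1, 6.33, 5.21 and 3.85 CPM in TCF-CCI and at 10.4, 9.65, 6.13, 5.35 and 10.9 CPM in TNF-CCI. Groups overlapped throughout, and Vehicle-sham 2 was above 12 of the 20 CCI libraries. Its mean CCI difference of 0.61 ± 0.24 did not pass (adjusted p = 0.112, edgeR). Without Vehicle-sham 2 and 3 the difference was 1.07 (adjusted p = 0.131).

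Itgam, the alpha chain of complement receptor 3, was at 5.23, 8.25, 6.99, 3.98 and 9.05 CPM in Vehicle-sham and at 24.8, 20.7, 7.65, 6.87 and 10.3 CPM in Vehicle-CCI. It was at 27, 12.2, 17, 12 and 13.6 CPM in TD-CCI, at 21.9, 7.83, 16.9, 9.21 and 5.18 CPM in TCF-CCI and at 37.7, 15.1, 9.24, 8.47 and 22.2 CPM in TNF-CCI. TD-CCI was the one group with no overlap with sham. Its mean CCI difference of 1.18 ± 0.37 did not pass (adjusted p = 0.0543, edgeR).

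Itgb2, the beta chain shared by the leukocyte integrins, was at 2.85, 2.28, 1.88, 3.06 and 5.07 CPM in Vehicle-sham and at 20.6, 12.5, 3.54, 4.4 and 9.16 CPM in Vehicle-CCI. It was at 14.9, 12.6, 12.1, 14.3 and 17.1 CPM in TD-CCI, at 15.9, 3.61, 14.5, 4.91 and 3.95 CPM in TCF-CCI and at 30.8, 8.25, 10.1, 8.6 and 25 CPM in TNF-CCI. TD-CCI libraries lay close together, well above sham, whereas 3 TCF-CCI and 2 Vehicle-CCI libraries lay within the sham range. Itgb2 rose by 1.97 ± 0.43 over the 4 CCI groups together (adjusted p = 0.0222, edgeR).

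Serping1, the inhibitor of C1r and C1s, was at 2.65, 5.52, 2.89, 4.43 and 11.4 CPM in Vehicle-sham and at 48.1, 30.8, 8.19, 7.47 and 29.9 CPM in Vehicle-CCI. It was at 26.9, 30.8, 31, 32.2 and 33.1 CPM in TD-CCI, at 33.8, 6.89, 28.1, 17.4 and 2.96 CPM in TCF-CCI and at 91.4, 23, 25.7, 30.8 and 85.8 CPM in TNF-CCI. The 5 TD-CCI libraries differed by at most 1.23 times, the TCF-CCI libraries by 11.4 times, and TNF-CCI 1 and 5 were the highest of all libraries. Serping1 rose by 2.42 ± 0.53 over the 4 CCI groups together (adjusted p = 0.0222, edgeR), from 5.38 ± 3.57 CPM in sham (SD, n = 5) to 31.2 ± 22.6 CPM after CCI (SD, n = 20).

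Per kilobase of exon, the order of the members' sham means was C1qa (28.9 CPM per kb), C1qc (18.7), C1qb (14.9), C1s (3.23), Serping1 (2.85), C2 (2.73), Itgam (1.66), C3 (1.56), Itgb2 (0.933) and C3ar1 (0.591). Over the CCI libraries the C1q chains were again highest, at 57.2 for C1qa, 33.8 for C1qc and 29.5 for C1qb, followed by Serping1 (16.5), C3 (7.83), C2 (7.5), C1s (6.52), Itgb2 (3.81), Itgam (3.79) and C3ar1 (0.908). Serping1 and C3, low in sham, thus stood next after the C1q chains. Neighbours such as Itgb2 and Itgam, or C3 and C2, were within each other's spread.

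The 4 CCI groups were compared with sham in turn. These comparisons share the 5 sham libraries, so their values are not independent of each other. In Vehicle-CCI over sham, the injury without a supplement, none of the 10 passed at adjusted p under 0.05 (0.0% of all genes passed, edgeR). All 10 had an unadjusted p under 0.05 (2669 of all genes did, 6.66% higher), and DESeq2 called 4 (1.03% of genes higher). Log2 fold changes ran from 0.75 ± 0.29 for C3ar1 to 2.2 ± 0.58 for Serping1, with C3 at 1.88 ± 0.52 (adjusted p 0.157 to 0.345). No member was free of overlap (0.465% of genes were, higher). Without Vehicle-CCI 4, which was among the lowest 3 of the 20 CCI libraries in 8 members, 4 passed, and so did 1.33% of all genes, higher.

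In TD-CCI over sham, none of the 10 passed (0.0% of genes, edgeR, with 9 members at an unadjusted p under 0.05, against 6.84% of genes higher), while 7 had no overlap with sham: C1qb, C1s, C2, C3, Itgam, Itgb2 and Serping1. Genes without overlap and higher made up 2.36% of those tested. C3 was at 2.64 ± 0.54 (adjusted p = 0.112, edgeR), Serping1 at 2.51 ± 0.59 and Itgb2 at 2.22 ± 0.5, whereas C1qc was at 0.63 ± 0.33. DESeq2 called 4 (0.904% of genes higher), and a fit of only the groups compared called 5 (0.699% of genes higher).

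In TCF-CCI over sham, none passed (0.0% of genes higher, edgeR), and DESeq2 called none (0.447% of genes higher). Of the members 4 had an unadjusted p under 0.05, against 6.31% of genes higher, and none was free of overlap, against 1.73% of genes. All 10 were above 0, from 0.24 ± 0.29 for C3ar1 to 1.75 ± 0.52 for C3. TCF-CCI 2 and 5 were among the lowest 3 of the 20 CCI libraries in 9 members each.

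In TNF-CCI over sham, 7 of the 10 passed: Serping1, C3, Itgb2, C2, C1qa, C1qb and C1s (1.71% of all genes passed, higher; edgeR), and the same 7 had no overlap with sham (2.58% of genes). All 10 had an unadjusted p under 0.05 (9.41% of genes higher). Serping1 rose by 3.25 ± 0.61, C3 by 2.71 ± 0.54, Itgb2 by 2.44 ± 0.5 and C2 by 1.74 ± 0.37 (adjusted p 0.0198 to 0.0219, edgeR). C1qb rose by 1.36 ± 0.36, C1s by 1.29 ± 0.36 and C1qa by 1.25 ± 0.31, while C1qc (1.18 ± 0.33, adjusted p = 0.0554), Itgam (1.47 ± 0.44, adjusted p = 0.0631) and C3ar1 (0.8 ± 0.29, adjusted p = 0.117) did not pass. Without TNF-CCI 1, TNF-CCI 5 or Vehicle-sham 4, or without Vehicle-sham 2 and 3, none passed, nor did any gene higher over the whole table, and without Vehicle-sham 3 there were 4 (0.596% of genes higher). C1qb was called in 15 of the 34 alternative settings and C1s in 12, against 28 or 29 for the other 5 called members. With the mitochondrial rRNA share in the model none passed (0.461% of genes higher). That share was 2.95% to 4.17% in TNF-CCI 1, 3, 4 and 5 and 10.9% in TNF-CCI 2. In the libraries of the other CCI groups it was 5.56% to 9.89%. Its part in the TNF-CCI differences was not tested.

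**Figure D2:**
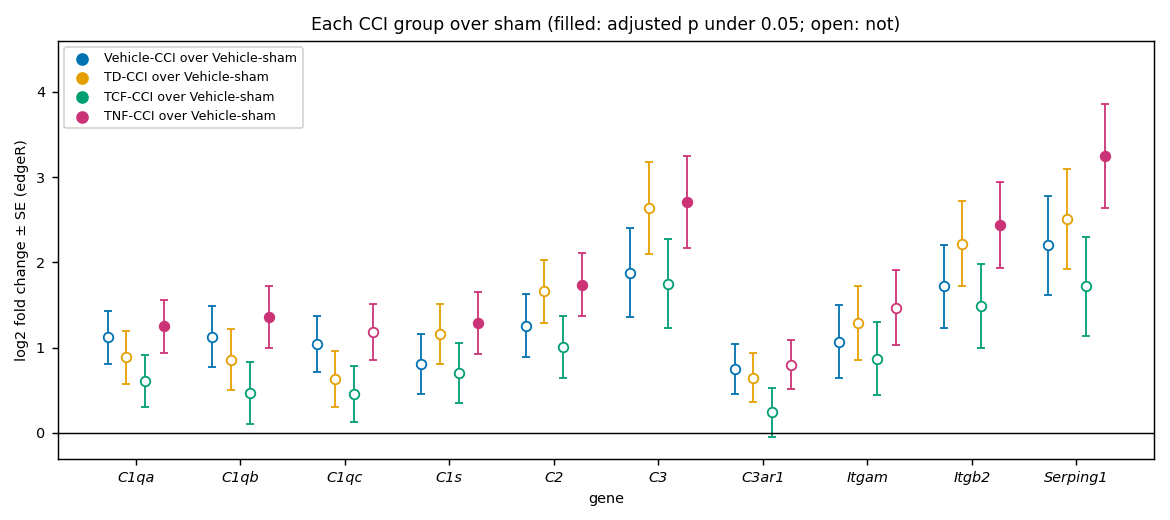
Log2 fold change of each complement gene in each CCI group over Vehicle-sham (y axis: edgeR log2 fold change; bars: ± SE; x axis: gene; colours: CCI group; filled: adjusted p under 0.05). Every value is above 0, and the 7 filled points belong to TNF-CCI.

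The authors' deposited table for each CCI group gave similar fold changes with more calls. In the authors' deposited table for Vehicle-CCI, 3 members had an adjusted p under 0.05, C3 (log2 1.91), Itgb2 (1.74) and Serping1 (2.22), where 0.308% of genes did and were higher. In that for TD-CCI, the authors' deposited table, 7 did, C1qa, C1s, C2, C3, Itgam, Itgb2 and Serping1 (1.97% of genes). The authors' deposited table for TCF-CCI had Itgb2 alone (1.5, adjusted p = 0.0487; 1.13% of genes). The authors' deposited table for TNF-CCI had 9, all but C3ar1 (2.72% of genes).

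Between CCI groups no member passed in any comparison, and neither did any other gene (0.0% in all 6, edgeR). TNF-CCI was above Vehicle-CCI in all 10 members, from 0.05 ± 0.29 for C3ar1 to 1.04 ± 0.55 for Serping1, with adjusted p of 1 and no member at an unadjusted p under 0.05 (729 genes). TCF-CCI was below Vehicle-CCI in all 10, from -0.66 ± 0.36 for C1qb to -0.11 ± 0.35 for C1s, again with none under 0.05 unadjusted (304 genes). In TD-CCI over Vehicle-CCI 6 were above 0, from -0.41 ± 0.33 for C1qc to 0.76 ± 0.5 for C3, with none under 0.05 unadjusted (368 genes). These 3 comparisons share the Vehicle-CCI libraries.

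TNF-CCI was above TCF-CCI in all 10, from 0.56 ± 0.29 for C3ar1 to 1.53 ± 0.56 for Serping1. Of these, C1qa, C1qb, C1qc and Serping1 had an unadjusted p under 0.05 (1079 genes, 3.06% higher), and adjusted p ran from 0.946 to 0.985. TNF-CCI over TD-CCI ran from 0.07 ± 0.5 for C3 to 0.74 ± 0.55 for Serping1 (517 genes and no member under 0.05 unadjusted). TD-CCI over TCF-CCI ran from 0.17 ± 0.33 for C1qc to 0.89 ± 0.5 for C3 (403 genes and no member under 0.05 unadjusted).

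The members varied together from library to library. Vehicle-CCI 1 was among the highest 3 of the 20 CCI libraries in 9 members, TNF-CCI 1 in 8 and TNF-CCI 5 in 7, and TCF-CCI 5 was the lowest in 7. With values centred on their group, C1qa and C1qb had a Pearson r of 0.95 and a Spearman rho of 0.95 over the 20 CCI libraries (permutation p = 1e-05 for both, the smallest these 100000 permutations can give, adjusted 9e-05 over 9 relations). The lowest r was that with C3ar1, 0.76 (rho 0.74, permutation p = 0.00054 and 0.001, adjusted 0.00061 and 0.001). For C3 r was 0.79 and rho 0.78 (adjusted permutation p = 0.00082 and 0.00093), and for Serping1 0.87 and 0.86 (adjusted permutation p = 0.00029 and 0.00047). The other 5 had r of 0.82 to 0.93. Without TCF-CCI 2 and 5, the libraries farthest from the C1qa median, r was 0.95 for C1qb, 0.72 for C3 and 0.84 for Serping1. The libraries share the tissue and the library kit. The share of other genes that follow C1qa this closely within groups was not computed. The relations are thus not shown to be particular to the complement genes. Over all 25 libraries C1qa had r of 0.97 with C1qb, 0.95 with C1qc, 0.91 with Serping1 and 0.74 with C3ar1. The 5 non-members most like C1qa had r of 0.933 to 0.948. Of the CCI libraries, the summed level of the microglial markers was highest in Vehicle-CCI 1 (789 CPM) and lowest in TCF-CCI 5 (270 CPM). Its correlation with the members was not computed.

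**Figure D3:**
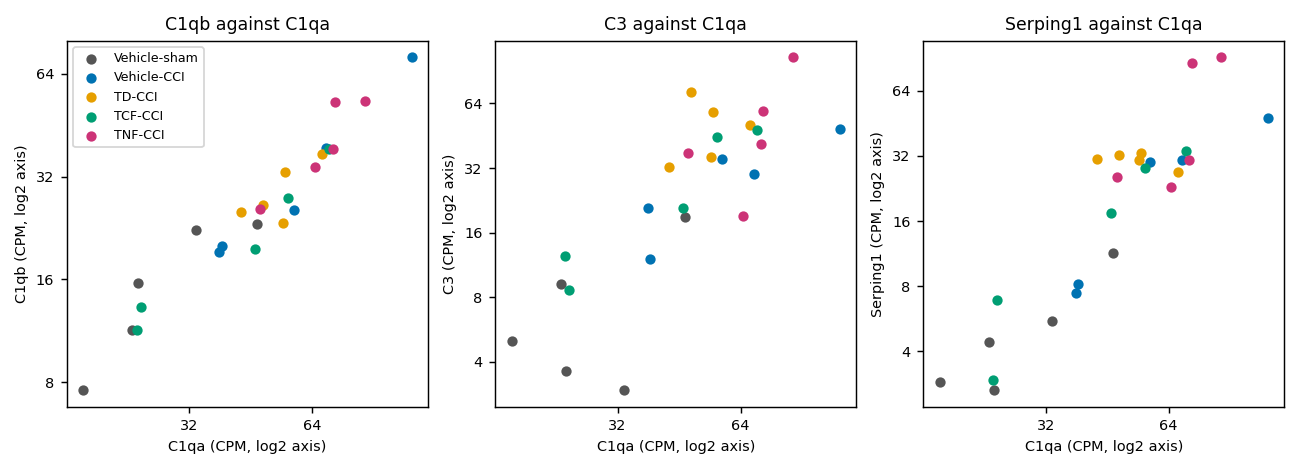
C1qb, C3 and Serping1 against C1qa in the 25 libraries (both axes: CPM on a log2 scale; points: libraries, coloured by group). C1qb follows C1qa closely in all groups, while C3 and Serping1 spread more, and Vehicle-sham 5 lies among the CCI libraries.

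Among the cell type lists, the microglial markers had the most calls and the highest median log2 fold change (0.58). Of 11 microglial markers, 10 were tested and 5 passed when the 4 CCI groups together were set over sham, among them Csf1r (1.4 ± 0.3), Trem2 (1.3 ± 0.3), Aif1 (0.79 ± 0.22) and Cx3cr1 (0.96 ± 0.27). The summed level of the 11 was 240 to 375 CPM in sham, 316 to 789 in Vehicle-CCI, 414 to 534 in TD-CCI, 270 to 565 in TCF-CCI and 405 to 718 in TNF-CCI. Of the astrocyte markers 1 of 9 passed, Gfap (1.33 ± 0.34), while 6 were above 0 and the median was 0.09. Their sums were 2801 to 4296 CPM in sham and 2753 to 10960 CPM after CCI. Gfap alone made up 7938 of the 10960 CPM in TNF-CCI 1. Of the monocyte and neutrophil markers 1 of the 9 tested passed, Fn1 (1.01 ± 0.22), and none of the 6 border macrophage markers did. In the monocyte and neutrophil list 5 of the 9 were above 0, with a median of 0.16. Its sums were 61.8 to 85.8 CPM in sham and 71.6 to 121 CPM after CCI. No marker of these lists was under 0.1 CPM in every library. Col1a1 (0.96 ± 0.21) passed among the 10 fibroblast and meninges markers and Prkcd (1.36 ± 0.36) among the 6 thalamus markers. No choroid plexus, endothelial, pericyte, lymphocyte or red cell marker tested passed. The choroid plexus sum was 3967 CPM in Vehicle-CCI 3 and 7.6 to 583 CPM in the other libraries. All 9 hippocampal neuron markers were below 0, with a median of -0.41 against 0.01 over all genes, and Neurod6 alone passed, having fallen by 1.18 on the log2 scale. Their summed level had a median of 2110 CPM in sham and of 1349 to 1584 CPM in the CCI groups. Without Vehicle-sham 2 none of the marker genes named here passed (adjusted p 0.06 to 0.129, edgeR), nor did any without Vehicle-sham 2 and 3 (0.118 to 0.247), and each kept its sign. Cx3cr1 and Aif1 were called in 23 of the 33 alternatives, and the other 7 named in 28 to 31. The part of cell composition in the complement differences was not tested.

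Relative to the sum of the 10 tested microglial markers, the members fell into a range. C1qa was at 9.99 ± 4.42 CPM per 100 CPM of markers in sham (SD, n = 5) and 11.8 ± 2.22 over the CCI libraries (SD, n = 20), 1.18 times the sham mean. The ratio was 1.16 for C1qb, 1.08 for C1qc, 0.98 for C3ar1, 1.2 for C1s and 1.35 for Itgam, with at most 6 CCI libraries above every sham library. Vehicle-sham 5 alone set the upper sham limit for every member but C3ar1. For C1qa it was at 17.1, and the other sham libraries were at 4.9 to 9.99. Every CCI library except TCF-CCI 2 (6.8) and TCF-CCI 5 (8.81) was above 9.99 for C1qa. C2 was at 1.61 times the sham mean, Itgb2 at 2.28, C3 at 2.86 and Serping1 at 3.26. Of the 20 CCI libraries 5, 14, 12 and 14 were above every sham library in these 4. These ratios are a description, with no test, since the marker sum itself differed between groups.

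**Figure D4:**
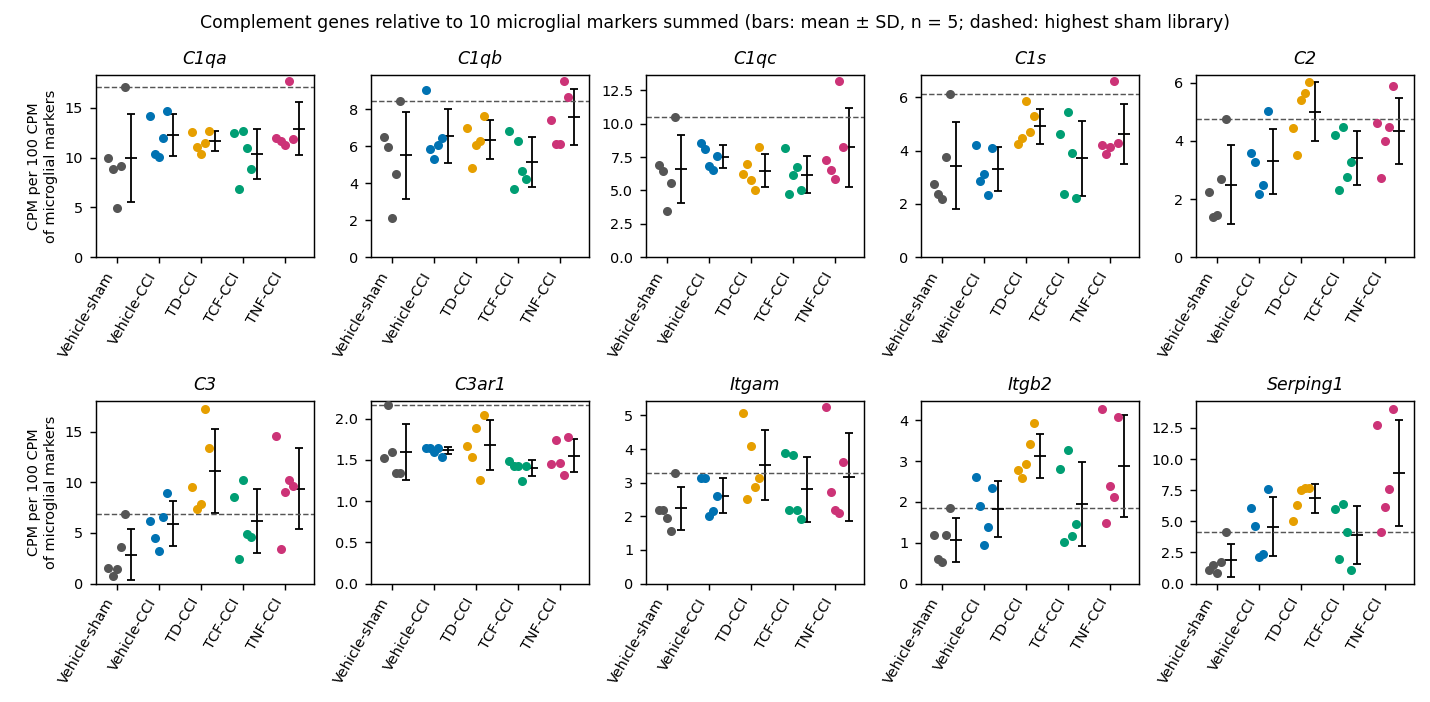
Level of each complement gene relative to 10 microglial markers (y axis: CPM per 100 CPM of the summed markers; x axis: group; points: libraries; bars: mean ± SD, n = 5; dashed line: highest sham library). C1q chains and C3ar1 lie mostly within the sham range, while 14 of the 20 CCI libraries lie above every sham library for Itgb2 and for Serping1. The dashed line is Vehicle-sham 5 in every panel but that of C3ar1, where it is Vehicle-sham 2.

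The genes whose levels were most like C1qa over the 25 libraries were Fcgr3a (r = 0.948), an Fc receptor, Npc2 (0.946), a lysosomal cholesterol carrier, Ctsh (0.945), a lysosomal protease, Slamf8 (0.935) and Adgre1 (0.933), the macrophage antigen F4/80. Those most like C3 were Csf1r (0.917), the receptor of the macrophage growth factor, Igsf10 (0.915), Mmp2 (0.906), a matrix protease, Vat1 (0.898) and Gfap (0.895), the astrocyte intermediate filament. These are correlations of log2 CPM over 16897 ranked genes, which share depth and injury group, and are given as a description.

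Of 56 other complement genes listed, 51 were in the table and 41 were tested. With the CCI groups together over sham, 1 of the 41 passed higher and none lower, close to the share over all genes (2.24% higher, edgeR). Of the 41, 30 were above 0, with a median of 0.17. The members and these lists were chosen with earlier results of these data known, so a contrast between them is no test. The gene that passed was C5ar2, a receptor of C5a (1.12 ± 0.29, adjusted p = 0.0324). Without Vehicle-sham 2 it was again at 1.12 and did not pass (adjusted p = 0.106, edgeR), nor without Vehicle-sham 2 and 3 (1.15, adjusted p = 0.167). Those of next smallest p did not pass: Clu, a fluid-phase inhibitor of membrane attack, at 0.82 ± 0.26 (adjusted p = 0.0573), Itgax, the alpha chain of complement receptor 4, at 1.32 ± 0.48 (0.0908), C4a at 1 ± 0.37 (0.0939) and C5ar1, the main C5a receptor, at 0.9 ± 0.36 (0.12). C4a has a near-identical paralog, C4b, so its value is uncertain. In TNF-CCI over sham 2 of the 41 passed, C5ar2 (1.29 ± 0.35) and Clu (1.15 ± 0.32), against 1.71% of all genes higher. Without Vehicle-sham 2 neither passed (adjusted p = 0.0799 and 0.0898, edgeR), and C5ar2 was called in 18 and Clu in 13 of the 34 alternatives.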

How the data were processed

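RNA-seq of rat hippocampus was analysed in 25 libraries. The main table held whole-number read counts per gene deposited by the authors, not normalized. Per the submitters' processing notes the tools were DESeq2, featureCounts, Salmon and STAR, and the build was mRatBN7.2. Roles and the strand setting are not stated. The authors' deposited tables of each CCI group against control gave log2 fold changes and DESeq2 p-values, per the file headers. Libraries were polyA-selected, per the labels.

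Of 34322 genes, 7 with empty cells were left out. Counts were fitted with edgeR 4.0.16 in R 4.3.3 (TMM, filterByExpr by group, robust quasi-likelihood F test), with all 25 libraries in 1 fit and a mean per group, for 11 comparisons. Benjamini-Hochberg adjustment ran over the 21064 genes tested, and calls are at 0.05. CPM values are TMM scaled, and log2 CPM used a prior count of 0.5. Relations within CCI libraries used 100000 permutations within groups, two-sided. Within groups, library pairs varied 25.7 to 776 times as much as counting error allows (chi-square per degree of freedom), so library spread sets the precision. That figure covers counting error only.

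All 10 members were named in every comparison, with other complement genes where called or by the 4 smallest p. The members and all gene lists were chosen with earlier results of these data known. The test was tried on simulated counts for the 4 CCI groups together against sham: of the changed genes tested, 65 of 99 at a log2 change of 1 and 86 of 94 at 2 were called, with 3.82% of calls false, over 21064 genes. Alternatives were DESeq2 1.42.0, its size factors, limma 3.58.1 voom with quality weights, other filters, a replicate block, only the groups compared, the mitochondrial rRNA share as a covariate and leaving out libraries. The values of 1 microglial marker that passed are not reported here.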

Additional observations from a re-analysis of the deposited data

Results flagged for a closer look

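In Vehicle-sham, C2 in library 5 (13 CPM) lay far above the other 4 libraries, which were between 5.18 and 6.85 CPM. The gap to the nearest library, divided by the range of the group, was above the 95% limit for 5 samples (0.71). It was the only one of the 50 combinations of 10 genes and 5 groups to do so, and chance alone marks about 1 in 20. Vehicle-sham 5 also had the lowest share of mitochondrial ribosomal RNA counts, 2.18%, whose part in the C2 level was not tested.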

How the results depend on the processing

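Over sham, every member stayed above 0 in each of the 33 or 34 alternatives. For the 4 CCI groups together, 6 members passed, 8 with the replicate block, 9 with DESeq2, 1 with a covariate for the mitochondrial rRNA share, 0 without Vehicle-sham 2 and 3, and 0 to 9 when each library was left out (0 without Vehicle-sham 2, 9 without Vehicle-sham 5). For TNF-CCI over sham 7 passed, 9 with the replicate block and with DESeq2, 0 with the covariate, 0 without Vehicle-sham 2 and 3, and 0 to 9 over single libraries. For Vehicle-CCI over sham 0 passed, 4 with DESeq2 (1.03% of genes higher), and 0 to 4 over single libraries (4 without Vehicle-CCI 4, 1.33% of genes higher). For TD-CCI over sham 0 passed, 3 with the replicate block (0.152% of genes higher), 4 with DESeq2 (0.904%) and 5 with only the groups compared (0.699%). The cause of these moves was not tested. TCF-CCI over sham and all comparisons between CCI groups had 0 under every alternative, and relations with C1qa held with DESeq2 size factors. Calls over all genes moved in the same settings: higher calls for the 4 CCI groups together were 2.24% of genes, 3.52% with the replicate block, 4.79% with DESeq2, 0.461% with the covariate, and 0.033% without Vehicle-sham 2 to 3.81% without Vehicle-CCI 4. For TNF-CCI over sham they were 1.71% of genes, 3.16% with the replicate block, 3.75% with DESeq2, 0.461% with the covariate, and 0% to 3.13% over single libraries. Same-numbered libraries of different groups correlated at -0.29 to 0.41 (median 0.1, 26 of 50 pairs over 0.1), differently numbered ones at -0.46 to 0.41 (median -0.02, 43 of 200 over 0.1), and 10 of 25 libraries correlated best with their own number. Same-numbered pairs were thus over 0.1 more often, though not in every pair, and no label ties the numbers to a shared animal or batch. The libraries were not treated as paired in the main fit, and the replicate block was run as an alternative.

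Signs turned only between CCI groups, in values that did not pass. In TNF-CCI over TD-CCI, C2 was at -0.01 and C3 at -0.09 with the replicate block, C2 at -0.04 and C3 at -0.22 with the covariate, and C3ar1 at -0.01 and Itgam at -0.17 with limma voom, which put C3ar1 at 0.03 in TD-CCI over Vehicle-CCI. Leaving out single libraries gave these ranges. In TD-CCI over Vehicle-CCI they were -0.38 to 0.08 for C1qa, -0.43 to 0.17 for C1qb, -0.23 to 0.12 for C3ar1 and -0.04 to 0.52 for Itgam. In TCF-CCI over Vehicle-CCI they were -0.32 to 0.26 for C1s, -0.48 to 0.0 for C2, -0.42 to 0.13 for C3, -0.5 to 0.1 for Itgam and -0.55 to 0.21 for Itgb2. In TNF-CCI over Vehicle-CCI they were -0.01 to 0.44 for C1qa, -0.02 to 0.42 for C1qc, -0.07 to 0.27 for C3ar1 and -0.03 to 0.7 for Itgam. In TNF-CCI over TD-CCI they were -0.12 to 0.21 for C2, -0.35 to 0.29 for C3, -0.25 to 0.44 for Itgam and -0.13 to 0.4 for Itgb2. In TD-CCI over TCF-CCI C1qc was at 0.0 to 0.44, and the other 9 stayed above 0.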

Other observations

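The C1q-like genes, which share a fold with C1q but are not complement components, were listed with the pentraxins. Of the 7 genes 4 were tested, and C1ql1, a secreted synaptic organiser, passed with the 4 CCI groups together over sham, at 0.39 ± 0.12 on the log2 scale (adjusted p = 0.047, edgeR), a call made in 13 of the 33 alternative settings and not without Vehicle-sham 2 (0.38, adjusted p = 0.136) or without Vehicle-sham 2 and 3 (0.35, adjusted p = 0.226). It was at 10.6 to 13.4 CPM in sham and above every sham library in 16 of 20 CCI libraries. C5, the precursor of C5a, was low throughout and is named here after its values were seen. It was at 2.05 CPM in Vehicle-sham 2 and at 0.0978 to 0.376 CPM in the other sham libraries, and all 20 CCI libraries were below the sham mean. The difference, -1.05 ± 0.43, did not pass (adjusted p = 0.128, edgeR), and the sham mean rests on Vehicle-sham 2.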
